A study of Mus musculus with 10 samples.

Results

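The epidermal growth factor (EGF) family members described here are 10 genes taken by name: the ligands *Areg*, *Ereg*, *Hbegf*, *Btc*, *Tgfa* and *Egf*, the receptors *Egfr*, *Erbb2* and *Erbb3*, and the feedback inhibitor *Errfi1*. All 10 were found among the 45706 genes listed and all 10 were among the 25146 genes tested. They were measured by mRNA sequencing of whole uteri of adult mice at gestation day (GD) 3.5, the morning that precedes embryo attachment, in 5 control *Arid1a f/f* females and 5 *Ltf iCre/+ Arid1a f/f* females, called iCre uteri here. Both genotypes carry floxed alleles of *Arid1a*, a subunit of the SWI/SNF chromatin remodelling complex, on a mixed background of the strains 129S1/SvImJ, 129S6/SvEvTac, 129P2/OlaHsd and C57BL/6. In iCre mice, Cre recombinase is made from 1 allele of the lactoferrin locus *Ltf*, which is active in the endometrial epithelium of mature females. Stroma, muscle and vessels keep the gene, and the Cre driver has also been seen in neutrophils and other myeloid cells. Cre-bearing mice without floxed alleles were not analysed here, so the driver and the deletion cannot be told apart. The comparison asks how the uterine transcriptome differs when epithelial *Arid1a* is deleted before implantation.

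EGF family ligands are made as membrane-anchored precursors that ADAM proteases cut free. They bind receptor tyrosine kinases of the ERBB family, which pair up, phosphorylate each other and feed the ERK and PI3K pathways. AREG, TGFA and EGF bind EGFR, whereas HBEGF, BTC and EREG bind both EGFR and ERBB4. ERBB2 has no known ligand of its own and serves as a partner, and ERBB3 binds neuregulins but has little kinase activity. In the mouse uterus *Areg* is known as a gene that progesterone induces in the luminal epithelium before implantation, and *Hbegf* is known for its appearance in the epithelium next to the blastocyst. *Errfi1*, also called *Mig-6*, encodes a protein that binds and inhibits the EGFR kinase and is another gene known to respond to progesterone in the uterus.

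The 3 promoters printed here belong to *Areg*, *Btc* and *Errfi1*. *Areg* is the member with the largest change, and *Btc* is its neighbour that moved the other way. *Errfi1* did not pass the test and had similar motifs before the downstream of its listed starts only. Each stretch is the 250 bases before a transcription start, written 5′ to 3′ on the gene's strand from RefSeq on GRCm38.p6. The stretches are chr5:91139349-91139598 on the plus strand for *Areg*, chr5:91402995-91403244 on the minus strand for *Btc*, and chr4:150854820-150855069 on the plus strand for the downstream of the *Errfi1* starts listed. Capitals mark a TATA box (TATAAA), a cyclic AMP response element (CRE, TGACGTCA) and GC boxes (GGGCGG, or its complement).
Areg: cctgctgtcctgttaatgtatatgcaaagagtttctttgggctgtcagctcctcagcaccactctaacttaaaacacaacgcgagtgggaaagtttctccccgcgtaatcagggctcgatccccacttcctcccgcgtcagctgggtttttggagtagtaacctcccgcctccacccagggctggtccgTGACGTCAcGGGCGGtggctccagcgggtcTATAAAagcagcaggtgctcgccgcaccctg
Btc: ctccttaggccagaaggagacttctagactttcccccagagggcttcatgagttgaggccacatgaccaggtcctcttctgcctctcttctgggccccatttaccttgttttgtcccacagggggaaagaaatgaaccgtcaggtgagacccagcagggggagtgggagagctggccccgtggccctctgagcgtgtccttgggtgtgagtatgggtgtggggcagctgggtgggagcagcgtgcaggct
Errfi1: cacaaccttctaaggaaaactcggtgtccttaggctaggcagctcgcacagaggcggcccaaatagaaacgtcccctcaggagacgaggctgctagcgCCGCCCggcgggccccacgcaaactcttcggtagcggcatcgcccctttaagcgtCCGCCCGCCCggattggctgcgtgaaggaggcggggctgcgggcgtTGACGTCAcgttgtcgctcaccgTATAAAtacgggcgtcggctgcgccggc
The *Areg* stretch held a CRE 61 bases, a GC box 52 bases and a TATA box 31 bases before the start. The *Errfi1* stretch shared the order of CRE and TATA box, at 51 and 28 bases before the start. Its 3 GC boxes lay further away than the CRE and on the opposite strand, whereas that of *Areg* lay between CRE and TATA box. The *Btc* stretch held none of these, nor an AP-1 site (TGANTCA) or a steroid receptor half-site (TGTTCT). The stretch before the upstream *Errfi1* start, chr4:150853546-150853795, is not printed and held none of these motifs either. Both strands were searched, the motifs do not overlap one another in the *Areg* stretch, and the palindromic CRE reads the same on either strand. Among 32851 promoters of the same length, 1.55% held a CRE, 12.4% a TATA box, 32.7% a GC box, 6.75% an AP-1 site and 16.1% the half-site. RefSeq promoters were at hand for 7 of the 10 members. No AP-1 site or half-site was in any of those stretches, which says nothing of binding elsewhere.

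Of the 10 members, 6 passed the test (adjusted p under 0.05, edgeR quasi-likelihood test): *Areg* and *Ereg* were lower and *Hbegf*, *Btc*, *Erbb2* and *Erbb3* were higher in iCre uteri. Among all genes tested, 9.7% passed, 5.19% as higher and 4.51% as lower. The same 6 members had no overlap between the genotypes, beside 10.7% of all genes tested. The members were chosen with earlier results of these data known, so these counts are a description and not a test of the family. The median log2 fold change was 0.04 over the members and 0.03 over all genes. Libraries held 59296537 to 72702411 counts, so that 3 counts stood at 0.0418 to 0.0507 CPM, the unit of expression here, which divides counts by edgeR's TMM-adjusted library sizes. In controls *Arid1a* itself averaged 213 ± 22.9 CPM (SD, n = 5). Its mean was 185 ± 15.9 CPM (SD, n = 5) when Cre was present, with a log2 fold change of -0.20 that did not pass the test (adjusted p = 0.201). A two-sided exact permutation test of *Arid1a* alone gave p = 0.0397. These whole-uterus counts include stroma, muscle and vessels, which keep the gene. *Ltf*, whose locus carries the Cre, averaged 4.75 ± 3.92 CPM (SD, n = 5) and 714 ± 1194 CPM (SD, n = 5) and passed (adjusted p = 0.0092). Replicate 5 held 2831 CPM of *Ltf* and the other 4 iCre uteri 23.6 to 383 CPM, and without it the mean was 184 CPM (adjusted p = 0.00546). *Ltf* lies on chromosome 9, which holds no member.

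**Figure D1:**
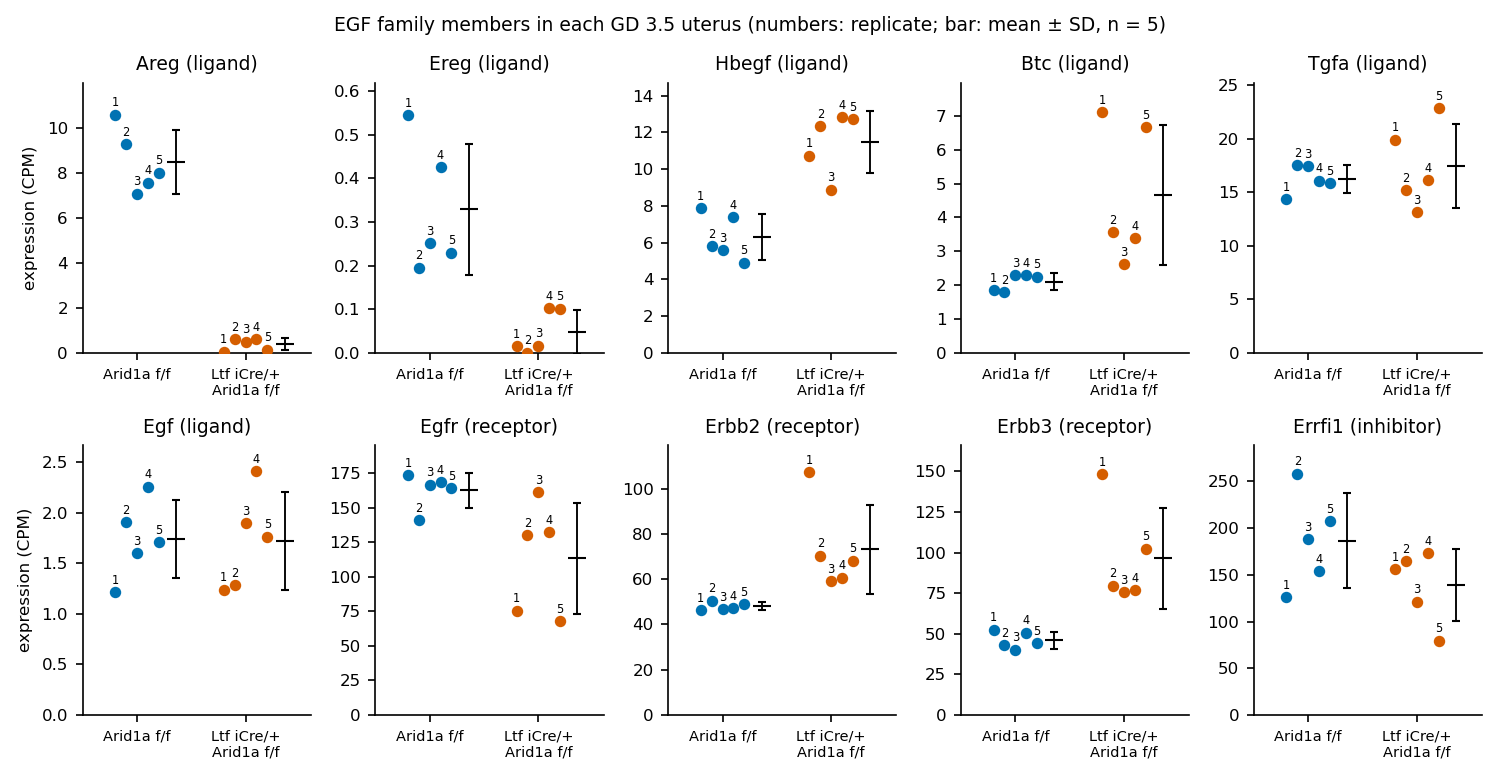
Expression of the 10 members in CPM (linear axes from 0), 1 point per uterus with its replicate number, for 5 *Arid1a f/f* uteri (blue) and 5 *Ltf iCre/+ Arid1a f/f* uteri (orange). Bars are mean ± SD. *Areg* stood between 7.07 and 10.6 CPM in controls and at no more than 0.608 CPM in iCre uteri, whereas *Hbegf*, *Btc*, *Erbb2* and *Erbb3* were higher in every iCre uterus than in any control.

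*Areg* (ENSMUSG00000029378, amphiregulin) showed the largest difference. Control uteri 1 to 5 held 10.6, 9.28, 7.07, 7.56 and 8.01 CPM, and iCre uteri 1 to 5 held 0.0470, 0.608, 0.490, 0.596 and 0.145 CPM. Every iCre uterus thus lay far below every control, and iCre replicate 1 rested on 3 counts. The means were 8.50 ± 1.42 CPM (SD, n = 5) and 0.377 ± 0.263 CPM (SD, n = 5), a ratio of 22.5. The fitted log2 fold change was -4.49 ± 0.54 (SE, adjusted p = 0.00131). By the two-sided exact permutation test p was 0.00794, the smallest that 5 uteri against 5 can give. In whole-uterus RNA, fewer cells of a type and less RNA per cell cannot be told apart.

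*Ereg* (epiregulin) was also lower, at a level near the detection limit. Controls held 0.545, 0.195, 0.251, 0.426 and 0.230 CPM and iCre uteri 0.0157, 0, 0.0163, 0.102 and 0.101 CPM. The iCre values rest on 1, 0, 1, 7 and 7 counts and the control values on 14 to 39 counts. The log2 fold change was -2.72 ± 0.68 (SE, adjusted p = 0.0291), and it passed in 4 of the 10 fits that left out 1 uterus, with adjusted p from 0.0217 to 0.0668. An antisense transcript, *Gm19610*, shares 141 exonic bases with *Ereg*, and the strand setting of the counting was not given in the sources used here.

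*Hbegf* (heparin-binding EGF-like growth factor) was higher. Controls held 7.89, 5.81, 5.58, 7.37 and 4.91 CPM and iCre uteri 10.7, 12.3, 8.88, 12.8 and 12.7 CPM. The lowest iCre uterus, replicate 3, lay above the highest control. The log2 fold change of 0.86 ± 0.17 (SE, adjusted p = 0.0106) passed in every fit that left out 1 uterus, where it ranged from 0.78 to 0.95.

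*Btc* (betacellulin) was higher as well, with a wide spread among iCre uteri. Controls held 1.85, 1.80, 2.29, 2.29 and 2.25 CPM and iCre uteri 7.12, 3.57, 2.62, 3.38 and 6.67 CPM. Replicates 1 and 5 stood far above the other 3, and the lowest of these was 2.62 CPM against a control maximum of 2.29 CPM. The log2 fold change was 1.16 ± 0.28 (SE, adjusted p = 0.0276). Without iCre replicates 1 and 5 it was 0.61 (adjusted p = 0.0836), and it passed in 4 of the 10 fits that left out 1 uterus. The call was lost without any 1 of the controls or without iCre replicate 1 (adjusted p up to 0.0731), and with the replicate number as a block adjusted p was 0.0725.

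*Tgfa* (transforming growth factor alpha) and *Egf* did not pass. *Tgfa* held 14.4, 17.5, 17.5, 16.1 and 15.8 CPM in controls and 19.9, 15.2, 13.1, 16.1 and 22.9 CPM in iCre uteri. Its log2 fold change was 0.10 with a 95% interval from -0.22 to 0.43 (adjusted p = 0.725). The iCre values lie on both sides of the control range, with replicates 1 and 5 on top. *Egf*, the founding ligand of the family, ranged from 1.22 to 2.26 CPM in controls and from 1.24 to 2.41 CPM in iCre uteri, with a log2 fold change of -0.02 and an interval from -0.55 to 0.52 (adjusted p = 0.978). *Egf* shares 607 and 500 exonic bases with the antisense genes *Gm42697* and *6330410L21Rik*.

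The receptors split. *Egfr*, the receptor that all 6 ligands bind, held 173, 141, 167, 168 and 164 CPM in controls and 75.5, 130, 161, 132 and 67.8 CPM in iCre uteri. Replicates 1 and 5 lay far below the lowest control, replicates 2 and 4 a little below it, and replicate 3 inside the control range. The log2 fold change of -0.52 ± 0.21 did not pass across all genes (SE, 95% interval -0.99 to -0.05, adjusted p = 0.147). The two-sided exact permutation test of *Egfr* alone gave p = 0.0159, and without replicates 1 and 5 the fitted value was -0.20 (adjusted p = 0.242).

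*Erbb2* was higher, with controls at 46.3, 50.5, 46.8, 47.3 and 49.0 CPM and iCre uteri at 107, 70.4, 59.1, 60.7 and 68.1 CPM. Replicate 1 stood apart at the top and the other 4 iCre uteri still exceeded every control. The log2 fold change was 0.61 ± 0.15 (SE, adjusted p = 0.0257). The call was lost when any 1 of the 5 controls was left out, at adjusted p up to 0.0634, with a log2 fold change of 0.59 to 0.62. It held without any 1 iCre uterus, and without replicates 1 and 5 together it was 0.40 (adjusted p = 0.0104).

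*Erbb3* was higher as well. Controls held 52.5, 43.1, 40.3, 50.8 and 44.0 CPM and iCre uteri 148, 79.7, 75.5, 76.7 and 103 CPM. The lowest iCre uterus, replicate 3, lay well above the highest control, and the log2 fold change of 1.06 ± 0.18 (SE, adjusted p = 0.00601) passed in every fit that left out 1 uterus. *Errfi1* held 126, 258, 188, 154 and 207 CPM in controls and 156, 164, 121, 173 and 79.5 CPM in iCre uteri. The *Errfi1* ranges overlapped, with a log2 fold change of -0.43 ± 0.23 (SE, adjusted p = 0.269) and p = 0.151 in the two-sided exact permutation test.

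**Figure D2:**
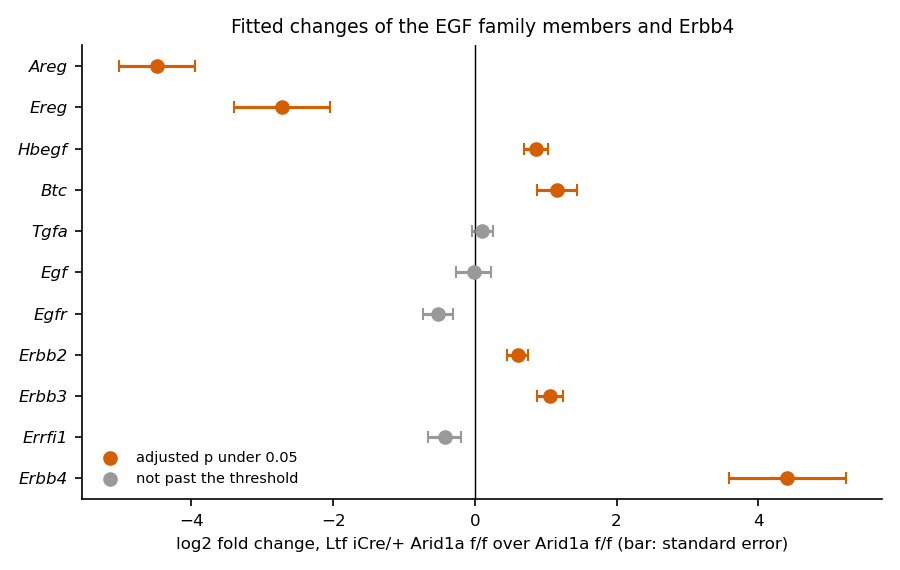
Fitted log2 fold change (iCre over control, bar: SE) of the 10 members and *Erbb4*, with genes past the threshold in orange and the others in grey. *Areg* at -4.49 and *Erbb4* at 4.41 lie at the ends, and *Tgfa* and *Egf* sit close to 0.

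The fourth receptor, *Erbb4*, was taken from the list of other family genes. It had 3, 7, 0, 4 and 0 counts in controls, which is 0 to 0.0976 CPM, and 1.13, 1.01, 0.213, 0.334 and 1.74 CPM in iCre uteri. Every iCre uterus exceeded every control, and the log2 fold change was 4.41 ± 0.82 (SE, adjusted p = 0.00893). Of the other genes in that list, the ligands *Epgn*, *Nrg1*, *Nrg2* and *Nrg4* did not pass and *Nrg3* was at 0 in all 10 libraries. *Nrg1*, an ERBB3 and ERBB4 ligand, held 0.923 to 1.62 CPM in controls and 3.89, 0.963, 0.589, 0.654 and 9.16 CPM in iCre uteri (adjusted p = 0.247). Replicates 1 and 5 lay above the controls and replicates 3 and 4 below them.

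Levels were compared between genes only per length, in TPM (counts per kilobase of merged exons, scaled to the same total in each uterus). Among the ligands of control uteri, *Areg* was highest at 25.0 ± 4.44 TPM (SD, n = 5), followed by *Tgfa* at 8.94, *Hbegf* at 4.67, *Btc* at 1.66, *Egf* at 0.549 and *Ereg* at 0.287 TPM. Neighbours in this order did not overlap in range except *Egf* and *Ereg*. In iCre uteri *Tgfa* led at 9.18 TPM with *Hbegf* at 8.12 TPM, and their ranges overlapped. *Btc* followed at 3.53 TPM, then *Areg* at 1.06 TPM, which overlapped *Egf* at 0.522 TPM, and *Ereg* was last at 0.0391 TPM. With the longest transcript as length, *Hbegf* at 10.5 TPM came just above *Tgfa* at 10.2 TPM in iCre uteri. *Areg* was thus the ligand of highest level in controls and not in iCre uteri.

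*Areg* made up 60.5% ± 4.25 (SD, n = 5) of the summed TPM of the 6 ligands in controls and 5.09% ± 3.74 (SD, n = 5) in iCre uteri. The share of *Tgfa* was 22.0% in controls and 40.7% in iCre uteri, that of *Hbegf* 11.3% and 36.4%, and that of *Btc* 4.09% and 15.3%. The summed level was 37.4 to 48.5 TPM in controls and 17.4 to 27.6 TPM in iCre uteri, without overlap. Since shares add up to 100%, the higher share of *Tgfa* goes with a *Tgfa* level that did not pass the test.

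Receptor levels in controls were ordered *Egfr* at 51.3, *Erbb2* at 32.9, *Erbb3* at 27.4 and *Erbb4* at 0.0113 TPM, with no overlap between neighbours. In iCre uteri *Erbb3* averaged 54.7, *Erbb2* 47.8, *Egfr* 34.2 and *Erbb4* 0.245 TPM, and the first 3 overlapped from one to the next. *Egfr* was 45.9% ± 2.18 (SD, n = 5) of the receptor sum in controls. It was 12.8%, 30.0%, 37.3%, 32.3% and 16.5% in iCre uteri 1 to 5, so that all 5 lay below the control minimum of 42.4%. The share of *Erbb3* was 24.5% ± 1.85 (SD, n = 5) in controls and 39.4% ± 7.16 (SD, n = 5) in iCre uteri. The summed receptor level was 103 to 121 TPM in controls and 123 to 175 TPM in iCre uteri. The lower share of *Egfr* thus goes with higher *Erbb2* and *Erbb3* and with an *Egfr* level that did not pass the test. *Errfi1* stood at 186 TPM in controls and 132 TPM in iCre uteri, above each receptor in both.

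**Figure D3:**
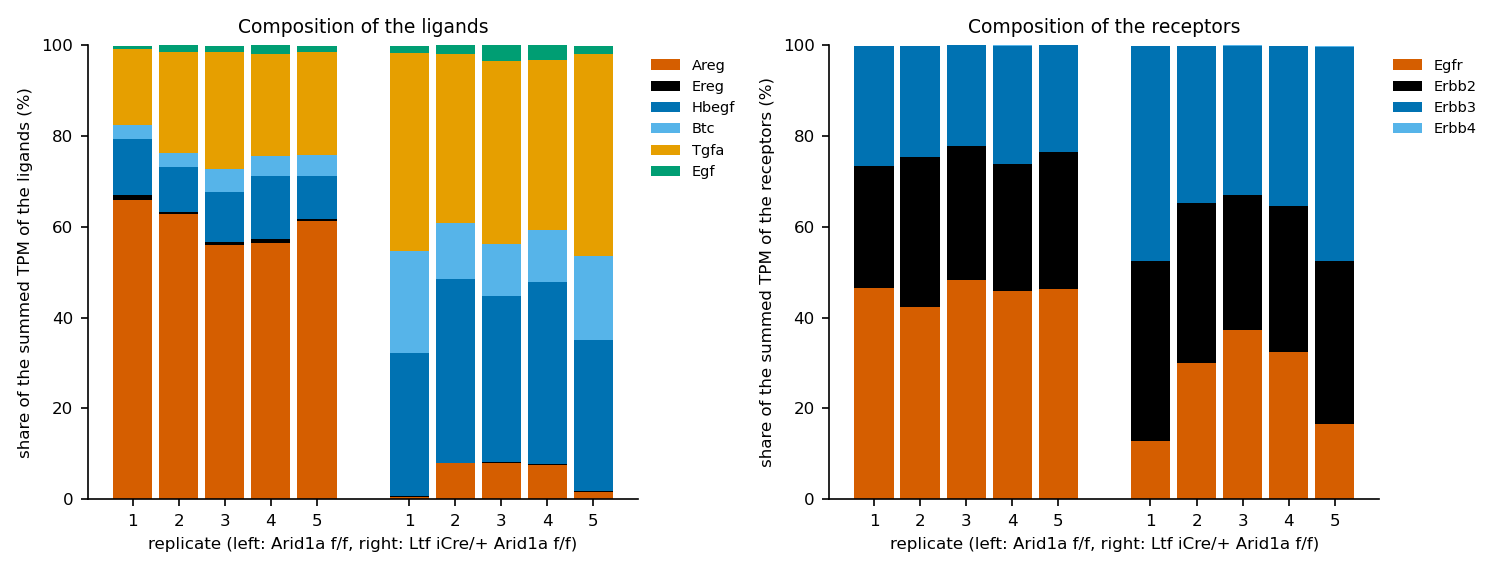
Share of each ligand (left panel) and receptor (right panel) in the summed TPM of its set, as stacked bars for each uterus. *Areg* fills 56.1% to 65.9% of the ligand bars in controls and at most 8.06% in iCre uteri. *Egfr* is a smaller part of every iCre receptor bar, smallest in replicates 1 and 5, though its level did not pass the test.

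Marker mRNA of several cell types differed between the genotypes as well. In whole-uterus RNA this does not separate a change in cell number from a change in marker expression per cell. Summed markers of epithelium were at 904 to 1196 CPM in controls and at 2783, 1487, 1298, 1593 and 1923 CPM in iCre uteri 1 to 5. Of 12 markers, 7 passed as higher (among them *Epcam*, *Cdh1* and *Krt19*), none passed as lower and none was at 0. The markers did not all move alike. *Cldn3* had a log2 fold change of -0.30 (adjusted p = 0.558). It held 121 to 186 CPM in controls but 78.7 and 59.2 CPM in iCre replicates 1 and 5. *Krt18* in iCre replicate 5, at 127 CPM, lay inside the control range. Replicates 1 and 5, which had the highest *Btc*, *Erbb3* and *Tgfa* and the lowest *Egfr*, also had the highest epithelial sum. *Hbegf* did not follow this order, at 10.7 CPM in replicate 1 and 12.7 CPM in replicate 5 against 12.8 CPM in replicate 4. *Erbb2* was highest in replicate 1, but its 68.1 CPM in replicate 5 lay below the 70.4 CPM of replicate 2. Markers of uterine glands were at 97.8 to 148 CPM in controls and 34.2 to 55.9 CPM in iCre uteri, where 1 of 8, *Foxa2*, passed as lower and *Prss28* and *Prss29* averaged under 0.1 CPM. All 8 gland markers had a negative log2 fold change, 6 of them at an unadjusted edgeR p under 0.05, and DESeq2 called 3. Endothelial markers were at 801 to 1096 CPM and 397 to 541 CPM, with 6 of 7 lower. T cell markers were at 15.4 to 18.8 CPM and 29.0 to 83.4 CPM, with 4 of 8 higher. Neutrophil markers were at most 16.6 CPM in controls and reached 774 CPM in iCre replicate 5, with *Ly6g* the only 1 of 8 that passed. Stromal sums overlapped, with 2 of 12 markers lower (*Vim* and *Dcn*). Muscle and macrophage sums overlapped, with 0 of 8 and 0 of 10 markers called by edgeR, 1 and 4 at an unadjusted p under 0.05, and 1 (*Myh11*) and 2 (*Cd68* and *Aif1*) by DESeq2, these 3 named after their values were seen. The part of these shifts in the members' values was not tested.

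The members were also set against the epithelial sum of the same uterus, a description chosen after the values were seen. This divisor averaged 1067 CPM in controls and 1817 CPM in iCre uteri, so a gene of equal CPM falls on this scale by construction: the median ratio of iCre to control over all genes tested with counts in controls was 0.633, and 30% of all genes were lower without overlap against 0.847% higher. *Areg* was at 6.32 to 9.68 CPM for each 1000 CPM of epithelial markers in controls and at 0.0169 to 0.409 in iCre uteri, a ratio of means of 0.0314. *Ereg*, *Tgfa* and *Errfi1* were among the lower genes without overlap. The ratio of *Tgfa* was 0.642, close to that median. *Erbb3* was higher without overlap by a narrow margin (37.9 to 48.0 against 48.2 to 58.1), and *Erbb4* was higher too. *Hbegf*, *Btc*, *Erbb2*, *Egf* and *Egfr* overlapped.

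*Areg*, *Ereg* and *Btc* lie in 1 neighbourhood of chromosome 5 (GRCm38), *Areg* at 91139599 to 91148432, *Ereg* 65.0 kb before it and *Btc* with its start 263 kb after it on the opposite strand. Of 54 genes that start within 1 Mb of *Areg*, 38 were tested and 7 passed, 4 as higher and 3 as lower, beside 9.7% of all genes tested. The 3 lower genes were *Areg*, *Ereg* and the unclassified transcript *Gm43085*, 336 kb before *Areg*, with a log2 fold change of -1.74 (adjusted p = 0.0487). The 4 higher ones were *Btc*, *Rassf6* (1.93, adjusted p = 0.00963), *Afm* (3.17, adjusted p = 0.0363), which rests on 0 to 4 counts in controls and 5 to 19 counts in iCre uteri, and the neutrophil chemoattractant *Cxcl5* (7.54, adjusted p = 0.0459), whose mean rests on 288 CPM in iCre replicate 5 and whose call was lost without it (2.03, adjusted p = 0.170). Among these 7 called genes, 6 were without overlap between genotypes, all but *Cxcl5*, beside 10.7% of all genes tested. The gland marker gene *Cxcl15* did not pass (-1.24, adjusted p = 0.127) but was also lower without overlap. It averaged 46.6 CPM in controls and 19.7 CPM in iCre uteri. *Cxcl15* ends at 90803067, and *Gm43085* starts just after it, at 90803261 on the same strand. *Epgn*, the ligand gene 112 kb before *Areg*, held 0.0760 CPM in controls and 0.0730 CPM in iCre uteri. The gene *Mthfd2l*, 208 kb before *Areg*, did not pass either, with a log2 fold change of 0.11 and a 95% interval from -0.13 to 0.36.

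**Figure D4:**
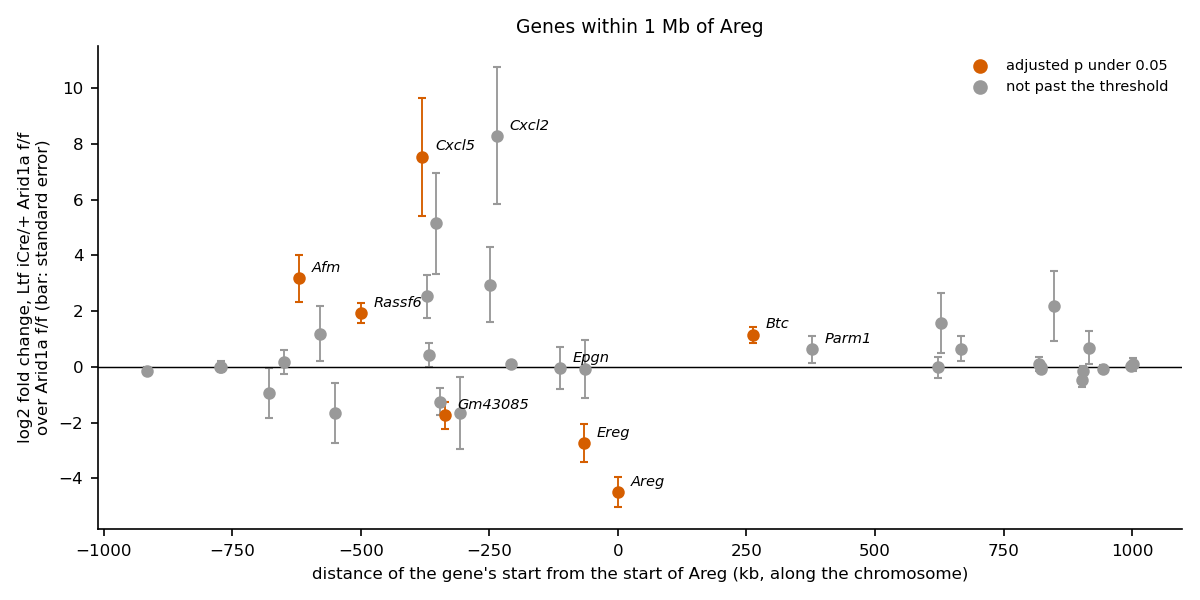
Log2 fold change (iCre over control, bar: SE) of the 38 tested genes within 1 Mb of *Areg*, against the distance of each gene's start from that of *Areg* in kb. Genes past the threshold are orange. *Areg* and *Ereg* fell while *Btc*, 263 kb away, rose, and the large values of *Cxcl5* and *Cxcl2* have wide errors.

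The wider pathway was read from 86 genes in 5 lists, of which 85 were tested and 12 passed, 6 higher and 6 lower, with a median log2 fold change of -0.03. Among all genes tested 9.7% passed, the share to set beside this count and those of the single lists. In the list of ligand shedding, 4 of 12 passed. *Adam8*, a protease of myeloid cells, was higher (1.68, adjusted p = 0.0319, and 1.06 without iCre replicate 5, adjusted p = 0.0248), as was *Rhbdf2*, a partner of ADAM17 (0.50, adjusted p = 0.0420). The protease *Adam15* (-0.51, adjusted p = 0.0426) and the ADAM17 inhibitor *Timp3* (-0.46, adjusted p = 0.0339) were lower. *Adam17* and *Adam10*, the main sheddases of the family, did not pass and averaged 93.5 and 233 CPM in controls and 91.9 and 227 CPM in iCre uteri. The median of this list was -0.04.

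In the list of feedback and turnover, 3 of 18 passed and the median was -0.02. The ERK phosphatase *Dusp5* was higher (0.75, adjusted p = 0.0448), and *Lrig2* (-0.28, adjusted p = 0.0339) and the CBL adaptor *Sh3kbp1* (-0.30, adjusted p = 0.0190) were lower. Among ERK response genes 0 of 16 passed by edgeR, with 2 at an unadjusted p under 0.05 (*Egr1* and *Plaur*) and 1 by DESeq2 (*Plaur*), both named after their values were seen. The median of this list was 0.11 and its summed level was 426 to 512 CPM in controls and 419 to 525 CPM in iCre uteri.

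In the list of signal transduction, 4 of 34 passed and the median was -0.05. *Grb7*, an adaptor that binds ERBB2, was higher, with a control mean of 25.6 ± 2.99 CPM (SD, n = 5) against 61.2 ± 27.4 CPM (SD, n = 5) in iCre uteri (log2 fold change 1.26, adjusted p = 0.0103). It is the neighbour of *Erbb2* on chromosome 11, with a gap of 8.68 kb. *Hras* was higher too (0.40, adjusted p = 0.0464). The docking protein gene *Gab1*, which links EGFR to PI3K, was lower without overlap, at 70.9 ± 5.24 CPM (SD, n = 5) and 47.8 ± 4.18 CPM (SD, n = 5) (-0.57, adjusted p = 0.0028).

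**Figure D5:**
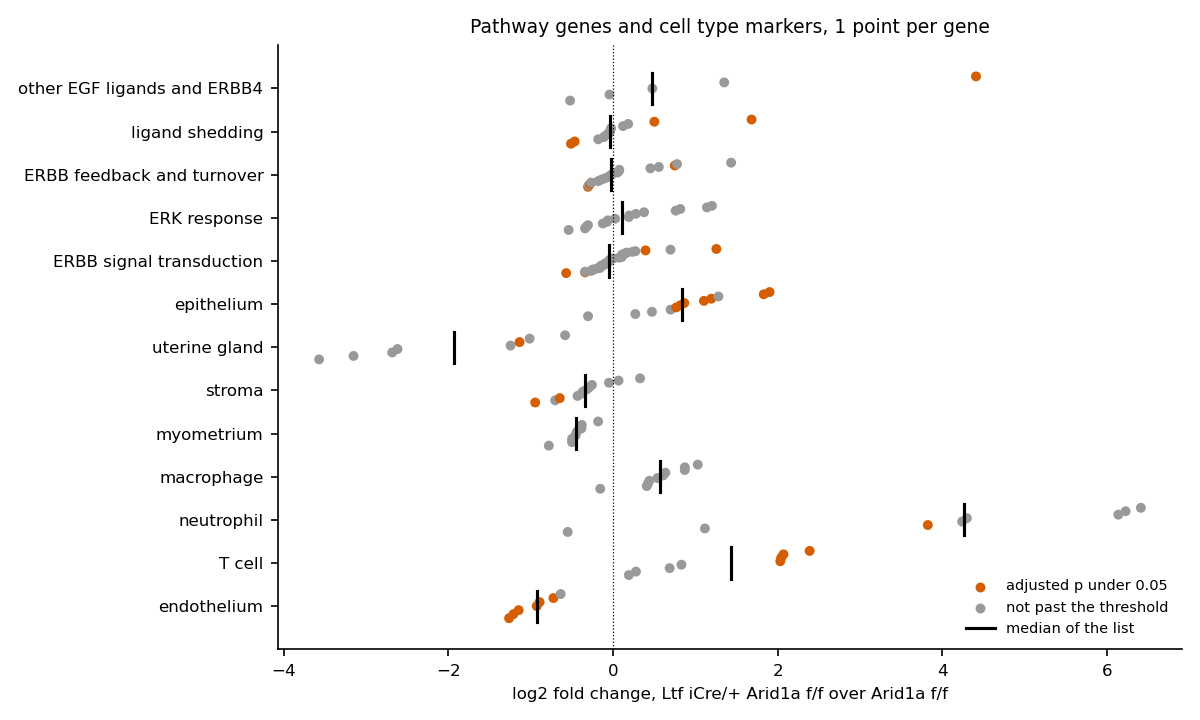
Log2 fold change (iCre over control) of each gene of the 5 pathway lists and 8 cell type marker lists, with called genes in orange and a black line at each list's median. The pathway lists centre between -0.05 and 0.48. The medians of epithelial, T cell, macrophage (0.58) and neutrophil (4.27) markers lie to the right. Those of gland, endothelial, stromal (-0.34) and myometrial (-0.45) markers lie to the left.

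For each called member, the genes whose log2 CPM relative to the control mean was closest over the 10 uteri were sought among 14590 or 14591 genes with at least 100 counts per uterus on average. The one closest to *Areg* was *Fam83a*, a gene linked to EGFR signalling in cancer cells, with a root mean square difference of 0.53 on the log2 scale. *Fam83a* averaged 8.85 CPM in controls and 0.389 CPM in iCre uteri. *Sox2ot* (0.87) and *Thsd7b* (0.91) came next. For *Ereg* they were *Kcnh1*, *Car8* and *Tmprss11g* (0.62 to 0.66), for *Hbegf* they were *Timd2*, *Zfp599* and *E2f2* (0.17 to 0.23), and for *Btc* they were the transferrin receptor gene *Tfrc*, *Slc25a13* and *Mboat1* (0.15 to 0.19). *Erbb2* was closest to *Cdc34*, *Pank1* and *Cmtm4* (0.09 to 0.11), and *Erbb3* to *Rab11fip1*, the desmosome gene *Dsp* and *Fdft1* (0.10 to 0.14). Taking the largest single difference in place of the root mean square kept 11 of these 18 genes. These genes were chosen for their likeness, so it is a description.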

How the data were processed

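The 5 *Arid1a f/f* and 5 *Ltf iCre/+ Arid1a f/f* uteri come from 1 deposited table of whole-number counts per gene. Per the labels and methods, the authors trimmed reads with cutadapt 1.18 and Trim Galore 0.6.4, checked them with FastQC 0.11.9, aligned them to GRCm38 with STAR 2.7.3a and counted them with its GeneCounts mode. The annotation release and strand setting are not given in the sources used here. Reads that fall on exons of overlapping genes may be lost or shared, which touches *Ereg* and *Egf*.

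Genes averaging at least 1 count over the uteri entered edgeR 4.0.16 in R 4.3.3 (TMM, quasi-likelihood test, genotype alone in the model, Benjamini-Hochberg adjustment over 25146 genes, threshold 0.05), and DESeq2 1.42.0 was an alternative. Standard errors and 95% intervals come from the edgeR fit. Single members were also tested by the two-sided exact permutation test over 252 arrangements of log2 CPM with a prior count of 2. Coordinates and exon lengths came from GENCODE for GRCm38, which holds 45143 of the 45706 identifiers. Promoters came from RefSeq. The procedure was tested on simulated counts.

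Samples were grouped by the genotype in their labels. No libraries were duplicates (chi-square of at least 36.1 per gene within a genotype). Per the methods, n counts animals, so each library was taken as 1 mouse. Counting depth is the total given in the report. Named genes were the members, *Arid1a*, *Ltf*, the called genes of the pathway lists (1 is not reported here), genes within 1 Mb of *Areg* and the 3 genes most like each called member. The members and lists were chosen with earlier results of these data known. Alternatives covered normalization, test, filter, replicate number, gene length and omitted uteri.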

Additional observations from a re-analysis of the deposited data

Results flagged for a closer look

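Within a genotype, single uteri stood apart from the other 4 for 2 of the 20 groups of member values examined (gap to the nearest uterus over the whole range above 0.71), where chance gives about 1 in 20. *Egfr* in control replicate 2 was 141 CPM, below the other controls. *Erbb2* in iCre replicate 1 was 107 CPM, above the other iCre uteri, which is also the uterus with the highest epithelial marker sum.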

How the results depend on the processing

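Of 70 member fold changes refitted under other normalizations, tests, filters, the replicate block or without iCre replicates 1 and 5, 66 kept their direction and side of the threshold, 2 lost the call and 2 of members that had not passed changed sign. The *Btc* call was lost under the replicate block (1.05) and without iCre replicates 1 and 5 (0.61), and without these 2 uteri *Tgfa* was -0.13, *Egf* 0.10 and the count of pathway genes called 7 in place of 12. Same-numbered uteri showed no clear likeness: their correlations were -0.05 to 0.13 and 2 of 5 numbers matched best with their own. These values cannot exclude a pairing. Per the methods, littermates were compared where possible, and the labels do not say which uteri these are. With the replicate block 5 members were called in place of 6, and 3 pathway genes were lower in place of 6. It ended no other member's call.

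When 1 uterus was left out, the log2 fold changes ranged from -3.18 to -2.43 for *Ereg*, 0.95 to 1.31 for *Btc*, 0.42 to 0.68 for *Erbb2*, -0.01 to 0.19 for *Tgfa* and -0.17 to 0.10 for *Egf*. *Tgfa* turned sign without iCre replicate 5 (-0.015), and *Egf* without control replicate 2 (0.02) or 4 (0.10) or iCre replicate 1 (0.08) or 2 (0.07). The *Ereg* call was lost without any 1 of control replicates 1 to 4 or iCre replicates 1 and 3. The count of members called ranged from 3 to 6, at 3 without any 1 of control replicates 1 to 4, and that of pathway genes from 4 to 10, at 4 without control replicate 4. Each such fit rests on fewer samples. With DESeq2 6 members and 17 pathway genes were called. With the longest transcript as length, *Areg* was 50.7% and *Tgfa* 26.4% of the ligand sum in controls. Depth limits *Ereg*, *Epgn*, *Erbb4* and *Afm*, whose values rest on few counts.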
